A study of Mus musculus with 6 samples.

Results

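The genes of nitric oxide synthesis and of the breakdown of asymmetric dimethylarginine (ADMA) were examined in the hearts of mice with an induced deletion of PTIP. The group has 10 genes: the nitric oxide synthases Nos1, Nos2 and Nos3, their partners Nos1ap, Nosip and Nostrin, the genes of ADMA breakdown Ddah1, Ddah2 and Agxt2, and Prmt1, which makes methylarginines. A probe set was taken as a measure of a gene where the platform annotation ties it to that gene alone, which gave 19 of 45037 probe sets and 10 of 18193 genes. Of these, 5 probe sets measure Ddah1, 4 measure Nos1, 2 each measure Nos1ap and Nosip, and the other 6 genes have 1 each. The group was put together around the decrease of Ddah1 in these same arrays, so the values of its genes in the comparison of knockout with control are a description and not independent evidence.

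Nitric oxide synthases make nitric oxide from arginine. In the heart and its vessels nitric oxide relaxes smooth muscle through soluble guanylyl cyclase and cyclic GMP, and it modulates contraction. Protein arginine methyltransferases methylate arginine residues, and when such proteins are degraded, free methylarginines are released. ADMA, one of these, competes with arginine at the synthases and inhibits them. DDAH1, a dimethylarginine dimethylaminohydrolase, hydrolyses ADMA to citrulline and dimethylamine, and DDAH2 is its paralog, whose activity towards ADMA is debated.

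The mice labelled PTIP KO were 3 females in which 1 allele of Paxip1, the PTIP gene, was floxed and the other null, and which also carried Cre recombinase fused to a modified estrogen receptor under the alpha myosin heavy chain driver, active in cardiomyocytes. The mice labelled PTIP+ were 3 female littermates in which 1 allele was floxed and the other allele was wild type, with no transgene named in the labels. The groups therefore differ in the null allele, the induced deletion and, by the labels, Cre, and effects of these cannot be told apart. All 6 received tamoxifen at 20 mg/kg at 8 weeks of age on a mixed background of C57B6 and B6129, and RNA was taken 5 days after tamoxifen from the left ventricular apex, a tissue of many cell types in which Cre is driven in cardiomyocytes only. Another label describes treatment over 5 days, so the number of injections is not settled. Each mouse was measured on 1 array, and values are log2 expression values made by RMA (robust multi-array average), on which a difference of 1 is a doubling. PTIP belongs to nuclear complexes around histone H3K4 methyltransferases.

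All 4 Paxip1 probe sets were lower in each of the 3 PTIP KO mice than in any PTIP+ mouse, with log2 differences of -1.83 to -0.95, and 3 of the 4 passed the test used below. The probe set that did not pass, with -0.95, was the brightest by mean over the 6 arrays (limma adjusted p = 0.106). The mice are called knockouts 1 to 3 and controls 1 to 3 where named singly. Correlations between arrays over all probe sets lay between 0.989 and 0.995. Control 1 stood apart on the first principal component, which held 28.9% of the variance. Actin control probe sets at the 3' end exceeded those at the 5' end, a measure of RNA integrity, by 1.45 to 1.64 (log2) in PTIP KO mice and 1.17 to 1.85 in PTIP+ mice, the highest value being that of control 1. The description numbers of knockouts 1 and 2 begin with other digits than those of knockout 3 and all controls, and the labels do not say what these numbers stand for.

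The promoters of Ddah1 and Ddah2 are shown because these paralogous genes differed in their values below. Each runs from 250 bases before to 50 bases after the RefSeq start of the gene on GRCm38.p6, 5' to 3' on the plus strand, with every CG dinucleotide in capitals. The Ddah1 window lies at chr3:145758442-145758741 and the Ddah2 window at chr17:35058785-35059084.
Ddah1: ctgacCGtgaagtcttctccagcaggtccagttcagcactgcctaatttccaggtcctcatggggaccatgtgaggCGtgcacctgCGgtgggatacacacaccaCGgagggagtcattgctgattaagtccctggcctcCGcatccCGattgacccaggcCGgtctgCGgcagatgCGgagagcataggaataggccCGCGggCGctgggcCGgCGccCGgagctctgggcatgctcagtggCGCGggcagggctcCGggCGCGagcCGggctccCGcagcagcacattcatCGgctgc
Ddah2: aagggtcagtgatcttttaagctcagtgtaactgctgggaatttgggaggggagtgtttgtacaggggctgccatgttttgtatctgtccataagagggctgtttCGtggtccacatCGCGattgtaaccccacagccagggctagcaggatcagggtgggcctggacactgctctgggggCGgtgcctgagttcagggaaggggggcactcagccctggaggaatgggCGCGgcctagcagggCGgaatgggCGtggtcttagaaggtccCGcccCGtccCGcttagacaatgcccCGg
The motif searched was CG, which reads the same on both strands. The Ddah1 window holds 23 of them and the Ddah2 window 12, against a median of 7 over 32851 mouse promoters of the same length, of which 21.5% hold as many as Ddah1 or more and 39.6% as many as Ddah2 or more. RefSeq promoters were matched for 8 of the 10 genes by symbol, with between 3 CG in Nostrin and one of the Agxt2 promoters and 39 in one of the Nos1ap promoters. The 10 genes lie on 8 chromosomes in the RefSeq gene table of GRCm38.p6, with Nos1 and Nos3 on chromosome 5, which also carries Paxip1, and Prmt1 and Nosip on chromosome 7.

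Ddah1 was lower in PTIP KO hearts on every one of its 5 probe sets. The brightest by mean over the 6 arrays, 1454995_at, read 6.61, 6.01 and 6.55 in PTIP KO mice 1 to 3, against 8.21, 8.53 and 8.01 in PTIP+ mice 1 to 3. The highest knockout value thus lay more than 1 log2 unit below the lowest control value. Group means were 6.39 ± 0.33 in PTIP KO mice and 8.25 ± 0.26 in PTIP+ mice (SD, n = 3 each), a log2 difference of -1.86 (SE 0.20), or 3.64-fold lower. Probe set 1455400_at read 6.31, 6.61 and 6.14 in PTIP KO mice, against 8.58, 8.34 and 7.93 in PTIP+ mice, and gave the largest difference among the 5, -1.93 (SE 0.20). The groups did not overlap on either probe set.

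The other 3 Ddah1 probe sets had the same direction. Probe set 1429298_at read 6.27, 6.42 and 6.24 in PTIP KO mice, a narrow range, and 8.53, 8.06 and 7.45 in PTIP+ mice, where the SD was 0.54, for a difference of -1.70 (SE 0.25). Probe set 1429299_at, which the annotation ties to the same sequence record, was dimmer, with 4.53, 4.64 and 4.15 in PTIP KO mice, against 5.91, 6.31 and 5.79 in PTIP+ mice (difference -1.56, SE 0.19). The dimmest, 1434519_at, shares its record with 1454995_at. It read 2.30, 2.76 and 2.27 in PTIP KO mice and 3.01, 3.11 and 3.10 in PTIP+ mice, a difference of -0.63 (SE 0.15). Its mean exceeded those of only 20.3% of all probe sets, and differences of dim probe sets are compressed on the RMA scale. The 5 probe sets therefore do not count as 5 separate measurements of the gene.

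**Figure D1:**
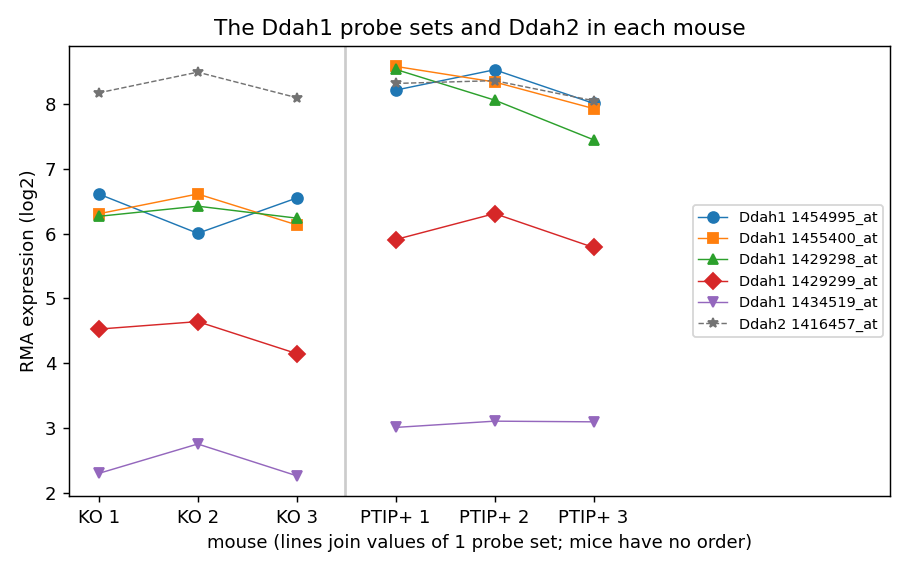
RMA expression (log2) of the 5 Ddah1 probe sets (solid lines) and the Ddah2 probe set (dashed line) in each mouse, PTIP KO on the left and PTIP+ on the right. Each Ddah1 probe set is lower in every PTIP KO mouse than in every PTIP+ mouse, while Ddah2 lies between 8.05 and 8.49 in all 6.

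The probe sets of Ddah1 separated the 2 groups alike but did not rank the mice within a group alike. Over the 6 arrays the Pearson correlations of the 10 pairs of Ddah1 probe sets lay between 0.78 and 0.98, values that mostly carry the difference between the groups. After subtraction of each group's mean they ranged from -0.74, between 1454995_at and 1434519_at, to 0.89, between 1455400_at and 1429298_at. Knockout 2 had the lowest value of its group on 1454995_at and the highest on the other 4 Ddah1 probe sets.

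In limma's test over all probe sets, in which a probe set was called at a Benjamini-Hochberg adjusted p under 0.05, 3 of the 5 Ddah1 probe sets were called lower, with 0.124% of all probe sets called lower as background. These calls are what chose Ddah1: the limma adjusted p was 0.0348 for 1454995_at, 0.0299 for 1455400_at and 0.0452 for 1429299_at. For 1429298_at it was 0.0728 and for 1434519_at 0.252. The call on 1454995_at ended when any 1 of the 6 mice was left out, with limma adjusted p from 0.0831 to 0.135 and differences from -1.98 to -1.67. Without control 3, 2 Ddah1 probe sets were called, 1455400_at and 1429298_at. Among the 4 arrays whose description numbers share their leading digits, knockout 3 against the 3 controls differed by -1.70 on 1454995_at.

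The Ddah2 probe set read 8.17, 8.49 and 8.10 in PTIP KO mice, against 8.32, 8.36 and 8.05 in PTIP+ mice. The ranges overlapped, and the difference was 0.01 (SE 0.15, 95% interval from -0.34 to 0.36). Setting both genes against each other within each array, which scaling of whole arrays does not alter, gave a log2 ratio of Ddah1 to Ddah2 of -1.56, -2.49 and -1.55 in PTIP KO mice, against -0.10, 0.17 and -0.04 in PTIP+ mice. The level of such a ratio has no meaning across probe sets, but its difference between the groups, -1.87, does, and all 3 PTIP KO values lay below all 3 PTIP+ values. With the mean of all Ddah1 probe sets in place of the brightest, the difference was -1.55.

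Agxt2, a mitochondrial aminotransferase that can also degrade ADMA and is known from liver and kidney, was near the lower end of the scale. It read 2.33, 2.16 and 2.14 in PTIP KO mice, against 2.61, 2.61 and 2.54 in PTIP+ mice, a difference of -0.37 (SE 0.11) that was not called. The groups did not overlap, but its mean exceeded those of only 12.0% of all probe sets, where a probe set may report no transcript. Alb, the albumin gene and a defining hepatocyte marker, was also near the lower end of the scale, with 2.50 to 2.57 in PTIP KO mice and 2.27 to 2.42 in PTIP+ mice.

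Prmt1, the main methyltransferase for asymmetric dimethylation of arginine, read 10.29, 9.96 and 10.19 in PTIP KO mice, against 10.02, 10.41 and 10.31 in PTIP+ mice. The ranges overlapped and the difference was -0.10 (SE 0.15), not called. Its size turned on single mice: it was -0.21 without control 1 and -0.17 without knockout 1, but -0.019 without control 2 and -0.0081 without knockout 2.

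None of the 6 probe sets of the synthases was called by limma, and that of Nos3 alone had an unadjusted p under 0.05. Nos3, the endothelial synthase, read 7.68, 7.11 and 7.23 in PTIP KO mice, against 7.66, 8.06 and 7.92 in PTIP+ mice, a difference of -0.54 (SE 0.18). Knockouts 2 and 3 lay below all controls, while knockout 1 lay level with control 1, and without knockout 1 the difference was -0.71. Nos2, the inducible synthase of activated macrophages and other cells, read 5.22, 4.52 and 5.05 in PTIP KO mice, against 4.33, 4.70 and 4.75 in PTIP+ mice (difference 0.34, SE 0.21). Here knockouts 1 and 3 lay above all controls and knockout 2 among them, and the difference was 0.19 without knockout 1 and 0.55 without knockout 2. Nos1, the neuronal synthase, which cardiomyocytes also express, was dim on its 4 probe sets. The brightest, 1458626_at, read 4.24, 4.20 and 4.48 in PTIP KO mice, against 4.49, 4.31 and 3.99 in PTIP+ mice. All 4 Nos1 probe sets overlapped between the groups, with differences between -0.04 and 0.04.

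Among the partners, Nos1ap, an adaptor that binds Nos1 and whose human locus is known for its association with the QT interval, had 2 probe sets that differed in their result. Probe set 1437485_at read 4.37, 4.50 and 4.25 in PTIP KO mice, against 5.03, 4.96 and 4.88 in PTIP+ mice, a difference of -0.58 (SE 0.11) with no overlap of the groups. It was not called, and it kept a difference between -0.65 and -0.52 whichever mouse was left out. Probe set 1430442_at read 4.30, 4.44 and 4.14 in PTIP KO mice and 4.64, 4.30 and 4.20 in PTIP+ mice. Its groups overlapped, and its difference was -0.09 (SE 0.15), with values from -0.18 without control 3 to 0.043 without control 1. The mean of the 2 probe sets hides this disagreement, and both lay below the median of all probe set means, 5.19.

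Nosip and Nostrin both bind Nos3 and are known to move it away from the cell membrane. Nosip, also a ubiquitin ligase, read 9.47, 9.48 and 9.30 in PTIP KO mice, against 9.28, 9.08 and 9.13 in PTIP+ mice on 1418965_at, a difference of 0.25 (SE 0.11). Each PTIP KO value lay above each PTIP+ value, but knockout 3 and control 1 were nearly level. Its other probe set, 1431428_a_at, differed by 0.23 (SE 0.13) with overlapping groups, 8.26 to 8.50 in PTIP KO mice and 8.00 to 8.29 in PTIP+ mice. Nostrin, an endothelial protein, read 7.75, 7.90 and 7.95 in PTIP KO mice, against 8.15, 8.14 and 7.99 in PTIP+ mice, a difference of -0.23 (SE 0.11). Its groups were only narrowly apart, and neither gene was called.

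**Figure D2:**
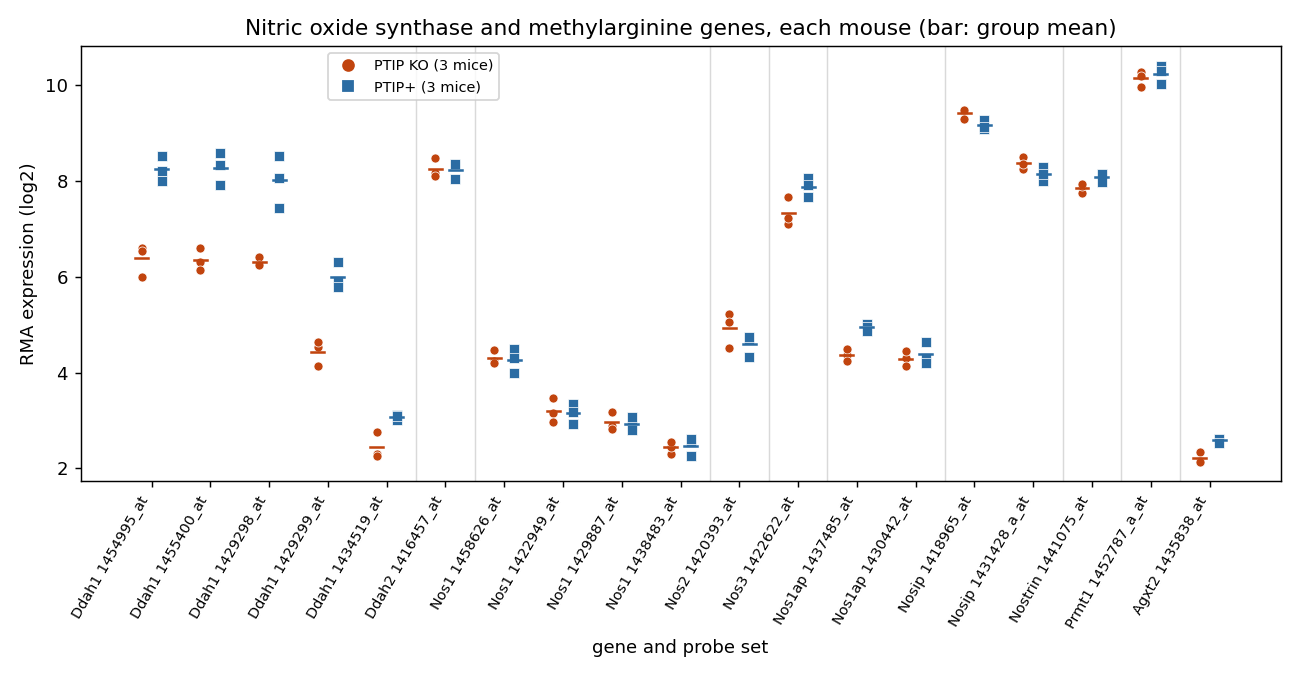
RMA expression (log2) of every probe set of the 10 genes, with a point for each mouse and a bar for the group mean, PTIP KO left of PTIP+. The widest gaps between the groups are those of the Ddah1 probe sets other than the dimmest, 1434519_at. Levels cannot be compared between probe sets.

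**Figure D3:**
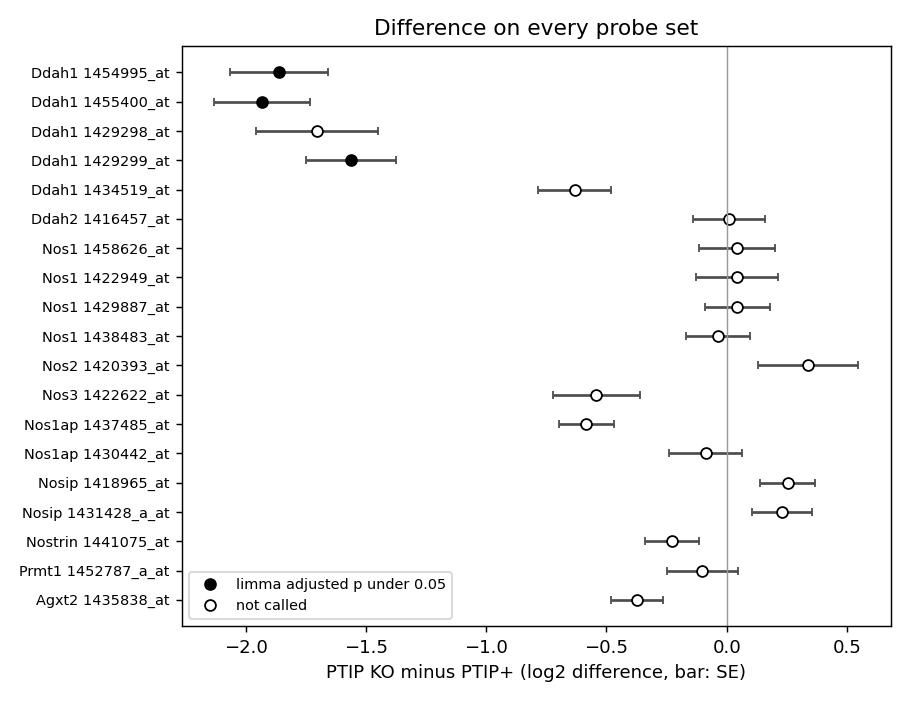
Log2 difference, PTIP KO minus PTIP+, for each of the 19 probe sets, with bars of 1 SE and filled points for probe sets called by limma. The 5 Ddah1 probe sets lie between -1.93 and -0.63 and the other 14 between -0.58 and 0.34.

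Over the whole group, 3 of 19 probe sets were called and all 3 measure Ddah1. None of the 14 others was called by limma, and 3 of these 14 had an unadjusted p under 0.05, against 9.07% of all probe sets. The groups did not overlap for 8 of the 19 with lower values in PTIP KO mice, 5 of them of Ddah1, against a background of 6.73% of all probe sets. For 1 of the 19 they did not overlap with higher values, against a background of 7.64%. Since the group was chosen from this contrast, nothing is read from these counts. By brightest probe set, the 10 genes had a median difference of -0.16, and 0.02 was the median over all 18193 genes.

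Other genes of the pathway were taken from 7 lists of known function, of which 72 genes were measured. Of these, 1 was called lower and none higher, with 0.286% of all genes called in either direction as background. At an unadjusted p under 0.05 there were 8 of 72, against 1686 of all 18193 genes, or 9.27%. Their median difference was 0.01, with 37 higher and 35 lower. The called gene was Slc38a4, an amino acid transporter, and its decrease was already known when the list was written. It read 6.95, 7.20 and 7.08 in PTIP KO mice, against 8.66, 8.55 and 8.35 in PTIP+ mice, a difference of -1.44 (SE 0.13, limma adjusted p = 0.0228). In the same list of membrane transporters and Agxt, with 6 measured genes, Slc6a8, the creatine transporter, differed by -0.43 (SE 0.11) and was not called. In that list 4 of the 6 genes had an unadjusted p under 0.05. For each of the 4 the groups did not overlap, 3 with lower and 1 with higher values in PTIP KO mice. Over all 18193 genes the groups did not overlap for 1196 with lower and 1718 with higher values. As the list was written with Slc38a4 known, nothing is read from these counts. The other 2 of these 4 genes, named after their values were seen, are transporters of organic cations. Slc47a1 differed by -0.38 (SE 0.14), and Slc22a2, near the lower end of the scale, by 0.36 (SE 0.13).

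None of the 13 genes of arginine supply was called by limma, and 1 had an unadjusted p under 0.05. Their differences lay between -0.35 for Gatm, which uses arginine for creatine synthesis, and 0.46 for Slc7a7, a transporter of cationic amino acids. Among 7 genes that make or regulate tetrahydrobiopterin, the cofactor of the synthases, none was called and 1 had an unadjusted p under 0.05. That gene was Gch1, the rate-limiting enzyme, with 6.51, 6.29 and 6.55 in PTIP KO mice, against 6.64, 6.84 and 6.90 in PTIP+ mice (difference -0.34, SE 0.13). Its groups were close but did not overlap. Spr, the last enzyme of that synthesis, differed by 0.28 (SE 0.22), with the lowest value of all 6 mice in control 1.

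Of 14 genes for partners and anchors of the synthases, none was called by limma and none had an unadjusted p under 0.05. The kinase gene Akt1, whose protein phosphorylates Nos3, differed by -0.25 (SE 0.12), and Sntb1, of the syntrophin family of membrane scaffolds, by -0.28 (SE 0.14). Among 13 genes of soluble guanylyl cyclase and cyclic GMP, none was called and 2 had an unadjusted p under 0.05. Prkg1, the kinase activated by cyclic GMP, read 9.90, 10.12 and 10.01 in PTIP KO mice, against 9.65, 9.53 and 9.62 in PTIP+ mice, a difference of 0.41 (SE 0.11) with no overlap. Pde1b, a phosphodiesterase of cyclic nucleotides, differed by 0.44 (SE 0.16).

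A further list held arginine methyltransferases other than Prmt1, with a partner protein of such enzymes. Among 9 genes of that list none was called by limma and none had an unadjusted p under 0.05, and their differences lay between -0.12 and 0.24. Prmt3 differed by 0.17 (SE 0.11), and Carm1, which methylates histone H3, by 0.24 (SE 0.15). Of 10 genes of nitrosothiol and nitrite handling, 8 were higher and 2 lower in PTIP KO mice, with a median of 0.14, but none was called and none had an unadjusted p under 0.05. Xdh, xanthine dehydrogenase, differed by 0.26 (SE 0.14) and Aox1, an aldehyde oxidase, by 0.15 (SE 0.10).

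**Figure D4:**
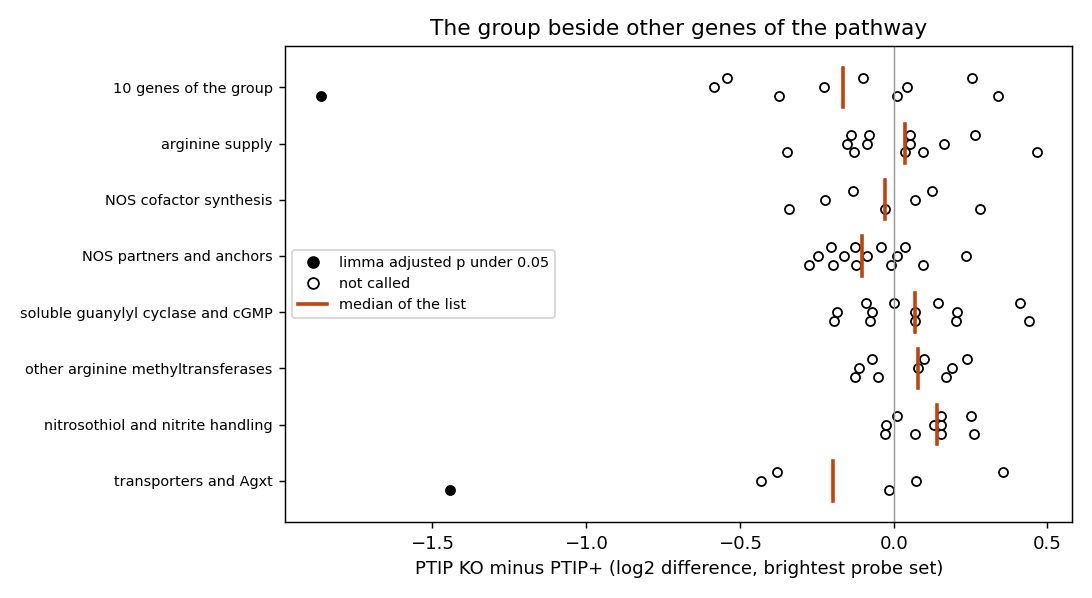
Log2 differences, PTIP KO minus PTIP+, of the 10 genes and of the other pathway genes by list, 1 point per gene at its brightest probe set, filled where limma called it, with a red bar at the median. Ddah1 at -1.86 and Slc38a4 at -1.44 are the filled points.

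In bulk tissue, fewer cells of a type and less RNA per cell cannot be told apart, so marker genes of the cell types of the heart are set beside these values. The 9 cardiomyocyte markers had mean levels of 12.94 to 13.04 in PTIP KO mice and 12.92 to 12.97 in PTIP+ mice, with 3 higher and 6 lower. Myh6, the adult ventricular myosin gene of the mouse, differed by -0.06 (SE 0.10). Its mean of 13.52 was near the highest values of the arrays, 13.97 to 14.11, and whether differences of such bright probe sets are compressed was not tested. The 10 endothelial markers, which bear on Nos3 and Nostrin, had mean levels of 10.01 to 10.12 in PTIP KO mice and 9.87 to 10.16 in PTIP+ mice, with 5 higher and 5 lower. The lowest level, 9.87, was that of control 1, against 10.16 and 10.11 in controls 2 and 3. Of the 10 genes, Cdh5, a junction protein of endothelium, differed by -0.16 (SE 0.10) with no overlap of the groups. Pecam1 differed by 0.22 (SE 0.36), with 8.08 in control 1 against 9.56 and 9.21 in controls 2 and 3. The even split of signs leans on control 1. No marker of either list was called by limma, and 1 of the 19, Nppa, had an unadjusted p under 0.05, against 9.27% of all genes. Nppa, of the cardiomyocyte list, was higher in PTIP KO mice by 0.54 (SE 0.19). Its rise enters the mean levels of that list, whose median difference was -0.01.

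The 10 macrophage and leukocyte markers, which bear on Nos2, were lower for 8 genes and higher for 2 in PTIP KO mice, with a median of -0.28. Their mean levels were 6.81 to 7.28 in PTIP KO mice and 7.24 to 7.32 in PTIP+ mice, and they overlapped because of knockout 1. Mrc1, a receptor of tissue macrophages, differed by -0.51 (SE 0.13) and Adgre1 by -0.47 (SE 0.15). None was called by limma and 3 had an unadjusted p under 0.05, against 9.27% of all genes. For 4 of the 10 the groups did not overlap, all with lower values in PTIP KO mice, against 1196 of all 18193 genes. The part of these markers in the value of Nos2, which had the opposite sign, was not tested. Fibroblast markers had mean levels of 10.49 to 10.59 in PTIP KO mice and 10.44 to 10.60 in PTIP+ mice, and smooth muscle and pericyte markers 9.53 to 9.83 in PTIP KO mice and 9.45 to 9.66 in PTIP+ mice. Of the 9 marker lists, that of mesothelium and epicardium had the widest spread between mice, from 5.09 to 7.11 in PTIP KO mice and from 6.03 to 6.96 in PTIP+ mice. Knockout 3 had the highest and knockout 2 the lowest of the 6 values. On Ddah1 probe set 1454995_at knockout 2 was also the lowest mouse of its group, but on the other 4 Ddah1 probe sets it was the highest. Schwann and neuronal markers had mean levels of 6.58 to 6.68 in PTIP KO mice and 6.43 to 6.71 in PTIP+ mice, and erythroid markers 4.87 to 5.51 in PTIP KO mice and 4.94 to 5.83 in PTIP+ mice. The liver and kidney list, which bears on Agxt2, had 3.87 to 4.02 in PTIP KO mice and 3.45 to 3.59 in PTIP+ mice. Its 1 called gene, Ttr, was higher by 1.95 (SE 0.22), an increase that was already known. The other genes of the list differed by -0.03 to 0.24, so the shift of the list mean rests mostly on Ttr.

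**Figure D5:**
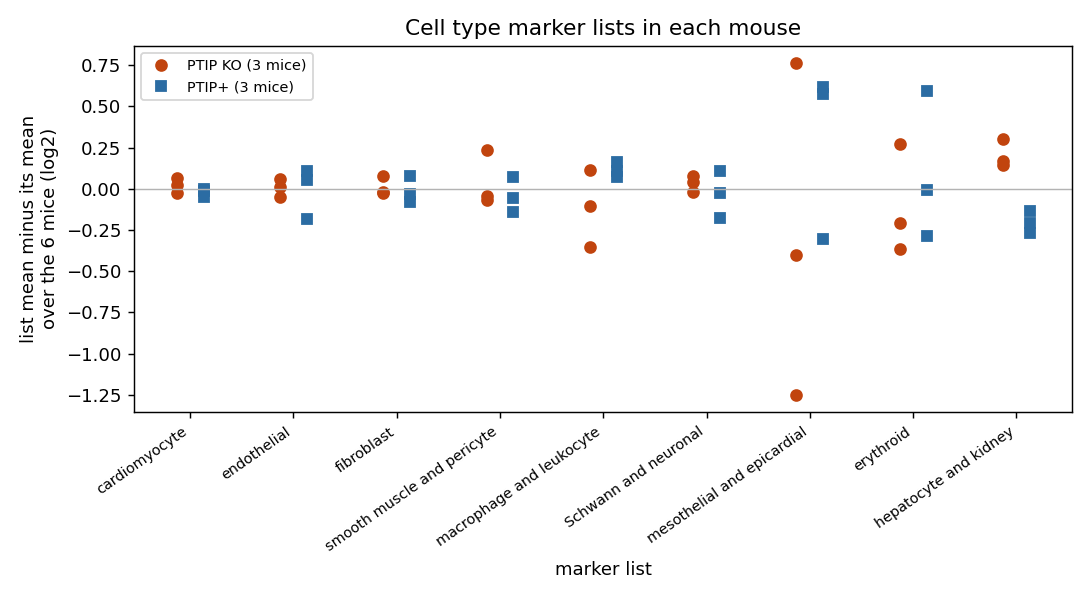
Mean log2 level of each cell type marker list in each mouse, less the mean of that list over the 6 mice, PTIP KO left of PTIP+. Cardiomyocyte and fibroblast lists vary little, and control 1 lies lowest on the endothelial list. The mesothelial and epicardial list spreads widely within both groups.

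Genes whose values followed Ddah1 across the 6 mice were ranked by Pearson correlation with 1454995_at among 11069 genes with a mean above the median. The first 5 were Thra, the thyroid hormone receptor alpha gene (0.988), Gramd1b, a sterol transfer protein (0.986), Rgs7, a regulator of G protein signalling (0.985), Srp19, of the signal recognition particle (0.984), and Srek1, a splicing regulator (0.983). With 6 arrays in 2 groups, such values carry the difference between the groups, and the top of a ranking over so many genes is high by selection. Rgs7 read 4.81, 4.59 and 5.03 in PTIP KO mice, against 6.28, 6.22 and 6.08 in PTIP+ mice, and was the 1 gene of these 5 that limma called. After subtraction of group means the correlation was highest for Gramd1b, 0.981, and 0.730 to 0.805 for the other 4. Gramd1b read 6.79, 6.44 and 6.70 in PTIP KO mice, against 7.32, 7.54 and 7.16 in PTIP+ mice, so that knockout 2 was lowest and control 2 highest, as on the Ddah1 probe set. Other Ddah1 probe sets rank the mice otherwise, so this order is that of 1 probe set.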

How the data were processed

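The deposited table holds log2 expression values per probe set, made by the authors with RMA according to the notes on processing that the submitters gave. The RMA software is not named, and that the log is to base 2 was taken from how far the values reach. Target was made with the NuGen Ovation kit, which amplifies RNA, per the labels' protocols. RMA normalises between arrays, which hides any change in the total RNA of a cell. Precision is limited by 3 mice per group. The p-values set each group difference against the spread between these mice. For that spread limma also draws on all probe sets.

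Of 45101 probe sets, 64 controls were left out. Gene names came from the platform annotation, with symbols updated through Entrez identifiers in RefSeq (GRCm38.p6). No genome coordinates of the probe sets are given, since no build is named. A gene is represented by its brightest probe set, the one with the highest mean over the 6 arrays. The test was a two-sided linear model with group as its term (lmFit and eBayes of limma 3.58.1, in R 4.3.3), with Benjamini-Hochberg adjustment over 45037 probe sets, and SE are limma's. The fit was tested on simulated data with known changes. The 10 genes, the pathway and marker lists and the naming rule (all probe sets of the 10 genes, called genes and the 2 with the smallest p of each pathway list, at most 2 markers of a cell type, the 5 genes most like Ddah1) were chosen with earlier results of these data known. Genes named outside that rule are Alb, Nppa, Ttr, Slc22a2 and Slc47a1. Alternatives were other variance priors, array weights, a filter on dim probe sets, renewed normalization, median centring, a replicate block, subsets of mice, other thresholds and averaging the probe sets of each gene, which for the single values of the 9 genes other than Ddah1 was chosen after seeing the data. Promoter sequences and CG counts are from RefSeq, counted with Python 3.11.15.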

Additional observations from a re-analysis of the deposited data

How the results depend on the processing

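The difference of the brightest Ddah1 probe set kept its sign and its call under array weights, a robust prior, a variance trend, the filter on dim probe sets, renewed quantile normalization, median centring and the mean of all probe sets (-1.54). It was -1.70 in the 4 arrays whose description numbers share their leading digits, where a lone knockout is assumed to vary like the controls. Without any single mouse it was -1.98 to -1.67 and lost its call. As every knockout value lay below every control value, no subset of mice could have changed the sign. With limma, the count of called member probe sets was 3, was 0 in those 4 arrays (8 at an unadjusted p under 0.05) and at a threshold of 0.01, and was 0 to 2 without single mice (7 to 9 at an unadjusted p under 0.05 where it was 0). The count over all probe sets was 86. It was 185 with a variance trend, 51 with a robust prior, 204 with array weights, 196 at a threshold of 0.1, 4 at 0.01, 0 in those 4 arrays (2348 at an unadjusted p under 0.05) and 0 to 21 without single mice (3790 without knockout 1 and 3532 without control 2, where it was 0). Of the pathway genes 1 was called, 2 with a variance trend, 0 in those 4 arrays (5 at an unadjusted p under 0.05) and at 0.01, and 0 to 1 without single mice (4 to 7 where it was 0). A stricter threshold lowers a count by construction, and fewer arrays give the test less power. The losses also differed with the mouse left out. At an unadjusted limma p under 0.05, there were 4083 probe sets with all mice, 5093 without control 1 and 3164 without control 3. The cause of this and of the other shifts was not tested. The difference of the log2 ratio of Ddah1 to Ddah2 was -2.03 to -1.56 without single mice. Values close to 0 changed sign: Ddah2 ran from -0.11 (without knockout 2) to 0.089 (without knockout 3), was -0.085 without control 3 and -0.15 in those 4 arrays, and Nos1 ran from -0.092 (without control 3) to 0.155 (without control 1) among subsets that leave out 1 mouse, with -0.044 without knockout 3, and was 0.172 with array weights and 0.216 in those 4 arrays. The 3 dimmer Nos1 probe sets and Nos1ap probe set 1430442_at also changed sign when single mice were left out. The filter on dim probe sets left no value for Nos1, Nos2, Nos1ap and Agxt2. Whether the replicate numbers pair the mice cannot be told from 3 mice per group. Deviations from the group means correlated at -0.15, -0.08 and -0.01 between mice of the same number. Between mice of unlike number they correlated at -0.18 to 0.20. With the replicate block the Ddah1 difference was -1.86 (limma adjusted p = 0.187), and 0 member probe sets (8 at an unadjusted p under 0.05), 0 pathway genes (4) and 0 of all probe sets (3392) were called.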
